A study of Mus musculus with 2 samples.

Results

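The mitochondrial carrier family (SLC25) and the uncoupling proteins (UCPs) were followed in primary mouse embryonic fibroblasts, connective tissue cells grown from embryos at embryonic day 13.5. Members were the rows of the deposited expression table named SLC25A with a number, or UCP1, UCP2 or UCP3. This gave 45 genes of the 25430 names in the table. The labels describe 2 groups, of 1 library each. The first is a knockout of Sptbn1, the gene of the membrane skeleton protein beta-2 spectrin, given as homozygous in the series' title, and the second is wild type. Both came from matings of heterozygous parents, and how many embryos or cultures each library holds was not stated in any source at hand. With 1 library per genotype no difference has a replicate check, so the values compare 2 libraries and not 2 conditions.

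Carriers of this family are small proteins of the mitochondrial inner membrane that swap or import metabolites, nucleotides, amino acids, cofactors and ions which the membrane itself does not let through. They share a fold of repeated modules, and each is known mainly by the substrate it moves. Uncoupling proteins belong to the same family. Ucp1 lets protons leak back in brown fat and so makes heat, while Ucp2 is found in many tissues, among them macrophages, and is better known for effects on substrate use and oxidant production.

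Levels are FPKM (fragments per kilobase of transcript and per unit of mapped fragments), a scale set per transcript length. The difference of a gene is its log2((knockout FPKM + 1)/(wild-type FPKM + 1)), or log2 ratio, so a positive value means higher in the knockout library and changes of low genes are understated. A gene was called measured at a mean of 1 FPKM or more over both libraries, which held for 11070 genes and for 32 of the 45 members. Of these 32, 2 (Slc25a35 and Slc25a18) reached 1 FPKM in the wild-type library only. The targeted gene Sptbn1 was listed at 36.6 FPKM in knockout cells against 69.6 FPKM in wild-type cells. This level is lower but does not show loss of the transcript, and which part of the gene was disrupted was not stated in any source at hand. The knockout is therefore taken from the label alone, and knockout cells stands throughout for the library labelled so. All rows together came to 279927 FPKM in knockout cells against 386567 FPKM in wild-type cells. Total fragment counts were not stated in any source at hand. The fibroblast collagen and matrix genes were abundant, with all 11 fibroblast markers measured and a summed level of 3937 FPKM in knockout cells against 4165 FPKM in wild-type cells.

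The median log2 ratio was -0.14 over the 32 measured members and -0.05 over all 11070 measured genes. Both turn positive (0.26 and 0.34) when the columns are scaled to a common FPKM sum. With rows of small RNA names and Dnaja1 left out of that sum, the medians were -0.16 and -0.07. The sign changes on a common FPKM sum, here and below, thus come from those rows. Below 0 were 23 of the 32 (71.9%, background 63.1% of measured genes) and above 0 were 9 (28.1%, background 36.9%). Those background shares also apply to each count below or above 0 given further on for a role or list. Relative to the median gene, 22 of the 32 (68.8%) lay below it, against 50% of all genes by construction. The number was also 22 under each of the scalings tried. Scaling moves the members and the median gene almost alike, so this is no check of that number. The quartiles of measured members were -0.19 and 0.03, and those of all measured genes -0.16 and 0.06. At 1.5-fold or more, 1 of 32 members was higher in the knockout library (background 1.04% of measured genes) and none was lower (background 1.23%). That gene was Ucp2. No member was past 2-fold in either direction (background 0.361% higher and 0.379% lower), though Ucp2 passed it in 4 of the other settings. Its log2 ratio was 1.07 with 0.1 FPKM added in place of 1, 1.02 with the median gene set to 0, 1.03 at a common upper quartile and 1.39 on a common FPKM sum. At 1.2-fold, 3 members were lower, Slc25a20 and Slc25a11 among them, which is 9.38% of 32 against 10.6% of all measured genes, and which were above 0 on a common FPKM sum, and Ucp2 alone was higher, 3.12% against 5.54%. With 1 FPKM added, the counts of members past a fold were thus, apart from Ucp2, near or under the background. With 0.1 FPKM added, more members were lower by 1.2-fold or more, while Ucp2 alone was higher by that fold. Among the lower ones were Slc25a18 (-0.37), Slc25a38 (-0.34), Slc25a35 (-0.33) and Slc25a22 (-0.31). The background at that setting was not computed.

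**Figure D1:**
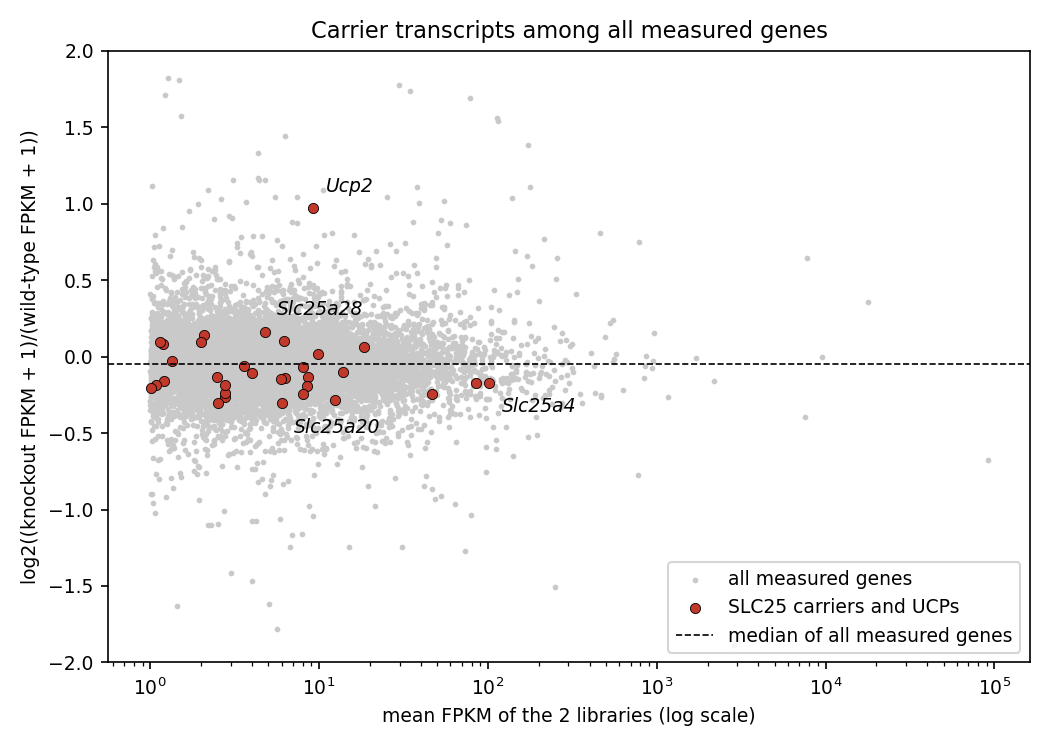
Log2 ratio of knockout over wild-type library (vertical axis) against mean FPKM of the 2 libraries (horizontal log axis) for 11070 measured genes (grey) and the 32 measured carriers (red). The dashed line is the median of all measured genes at -0.05, and 29 genes beyond 2 on either side are not drawn. Ucp2 stands at 0.97, and the other carriers lie between -0.31 and 0.16.

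Among the uncoupling proteins, only Ucp2 was measured. It was listed at 12.6 FPKM in knockout cells against 5.94 FPKM in wild-type cells, a log2 ratio of 0.97. The plain ratio of the FPKM values was 2.12, which the added 1 FPKM brings to just under 2-fold. Ucp2 ranked 6th of the 45 members in knockout cells and 16th in wild-type cells. Of the 11070 measured genes, 40 had a higher log2 ratio. In the authors' deposited table its p-value was 1.4418e-08, and no other measured member had a p-value below 0.05 there, against 5.6% of measured genes. That p-value holds no spread between cultures.

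Ucp1, the heat-producing protein of brown fat, was listed at 0 in both libraries. Ucp3, the form best known from skeletal muscle, was listed at 0.0241 FPKM in knockout cells and at 0 in wild-type cells. Defining genes of brown fat were listed at 0 or low too: Elovl3 was at 0 in both libraries and Cidea at 0 in knockout cells and 0.0341 FPKM in wild-type cells. The skeletal muscle markers Myog and Ckm were listed at 0 in both. Cox7a1, a cytochrome oxidase subunit gene of muscle and brown fat, was low, at 1.62 FPKM in knockout cells against 0.505 FPKM in wild-type cells (0.80). Dio2, a deiodinase gene of brown fat, was at 1.16 FPKM in knockout cells against 1.99 FPKM in wild-type cells (-0.47).

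Ucp2 lies beside Ucp3 on chromosome 7. The nearest protein-coding neighbours in gene order had smaller log2 ratios. On the Ucp3 side, C2cd3, a centriole gene, was at -0.23, the phosphatase methylesterase gene Ppme1 at -0.11, and the prolyl hydroxylase gene P4ha3 at 0.14. On the other side Dnajb13 was below the measured limit, at 0.168 FPKM in knockout cells and listed at 0 in wild-type cells. Coa4, a cytochrome oxidase assembly gene, was at 0.02, the mitochondrial ribosome gene Mrpl48 at -0.25 and the Golgi trafficking gene Rab6a at 0.00. With 1 FPKM added, none of the 6 measured neighbours within 4 places of Ucp2 reached 1.2-fold. In the plain ratio of the FPKM values, C2cd3 and Mrpl48 were lower by more than 1.2-fold, and the other measured neighbours were not past it. C2cd3 was at 1.73 FPKM in knockout cells against 2.20 FPKM in wild-type cells. Mrpl48 was at 1.76 FPKM in knockout cells against 2.29 FPKM in wild-type cells.

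The 250 bases before the RefSeq start of each uncoupling protein gene are shown because the 3 genes differ so widely in level. The windows are on GRCm38.p6, a later build than that of the alignment, and all 3 lie on the plus strand. Capitals mark matches, on either strand, to 8 motifs searched. These were the GC box (letters GGGCGG), the CCAAT box (named by its letters), the TATA box (letters TATAAA), the E-box (letters CACGTG), and the types bound by AP-1 (letters TGANTCA), SMAD (letters CAGACA), ETS (letters CCGGAAG) and nuclear receptors (half-site letters AGGTCA). Where matches overlap they share capitals.
Ucp2, chr7:100493108-100493357: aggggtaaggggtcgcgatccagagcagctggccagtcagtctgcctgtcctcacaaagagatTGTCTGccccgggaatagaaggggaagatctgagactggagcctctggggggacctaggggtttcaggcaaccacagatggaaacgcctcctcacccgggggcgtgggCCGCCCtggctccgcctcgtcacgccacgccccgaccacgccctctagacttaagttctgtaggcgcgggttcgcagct
Ucp3, chr7:100472741-100472990: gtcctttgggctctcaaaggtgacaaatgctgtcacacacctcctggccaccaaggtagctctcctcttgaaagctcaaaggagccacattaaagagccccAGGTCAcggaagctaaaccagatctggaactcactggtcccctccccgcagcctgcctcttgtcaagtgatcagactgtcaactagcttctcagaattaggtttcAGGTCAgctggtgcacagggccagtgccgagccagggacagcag
Ucp1, chr8:83290098-83290347: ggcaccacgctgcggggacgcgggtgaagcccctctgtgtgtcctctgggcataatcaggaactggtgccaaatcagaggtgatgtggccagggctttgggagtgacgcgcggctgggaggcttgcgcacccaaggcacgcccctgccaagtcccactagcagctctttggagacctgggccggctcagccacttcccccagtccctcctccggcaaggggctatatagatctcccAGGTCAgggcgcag

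The Ucp2 window had 63.6% G and C and 16 CG dinucleotides, the Ucp3 window 54.8% and 3, and the Ucp1 window 64.8% and 12. All 32851 RefSeq windows of this length had medians of 52.4% and 6. The Ucp2 window held 1 GC box match, from -79 to -74, and 1 SMAD-type match, from -187 to -182, counted from the start. GC box letters were found in 32.7% of all windows and SMAD-type letters in 17.1%. The Ucp3 window held 2 nuclear receptor half-sites and the Ucp1 window 1, letters that 14.0% of all windows hold. No TATAAA match was found in the 3 windows. Of the 45 members, 35 had at least 1 RefSeq window, of which 24 (68.6%) held the GC box letters and 3 (8.57%) the SMAD-type letters. A member counted if any of its windows matched, whereas the shares of all windows are per window, so these shares are not like for like. These matches describe the letters only.

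The 3 carriers related to the uncoupling proteins lay below the median gene, unlike Ucp2, though on a common FPKM sum all 3 were above 0. Slc25a30, a kidney-enriched relative, was listed at 5.93 FPKM in knockout cells against 6.65 FPKM in wild-type cells (-0.14). Slc25a14, also called UCP5, was at 2.32 FPKM in knockout cells against 2.63 FPKM in wild-type cells (-0.13). Slc25a27, also called UCP4 and best known from brain, was at 1.09 FPKM in knockout cells against 1.32 FPKM in wild-type cells (-0.16).

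**Figure D2:**
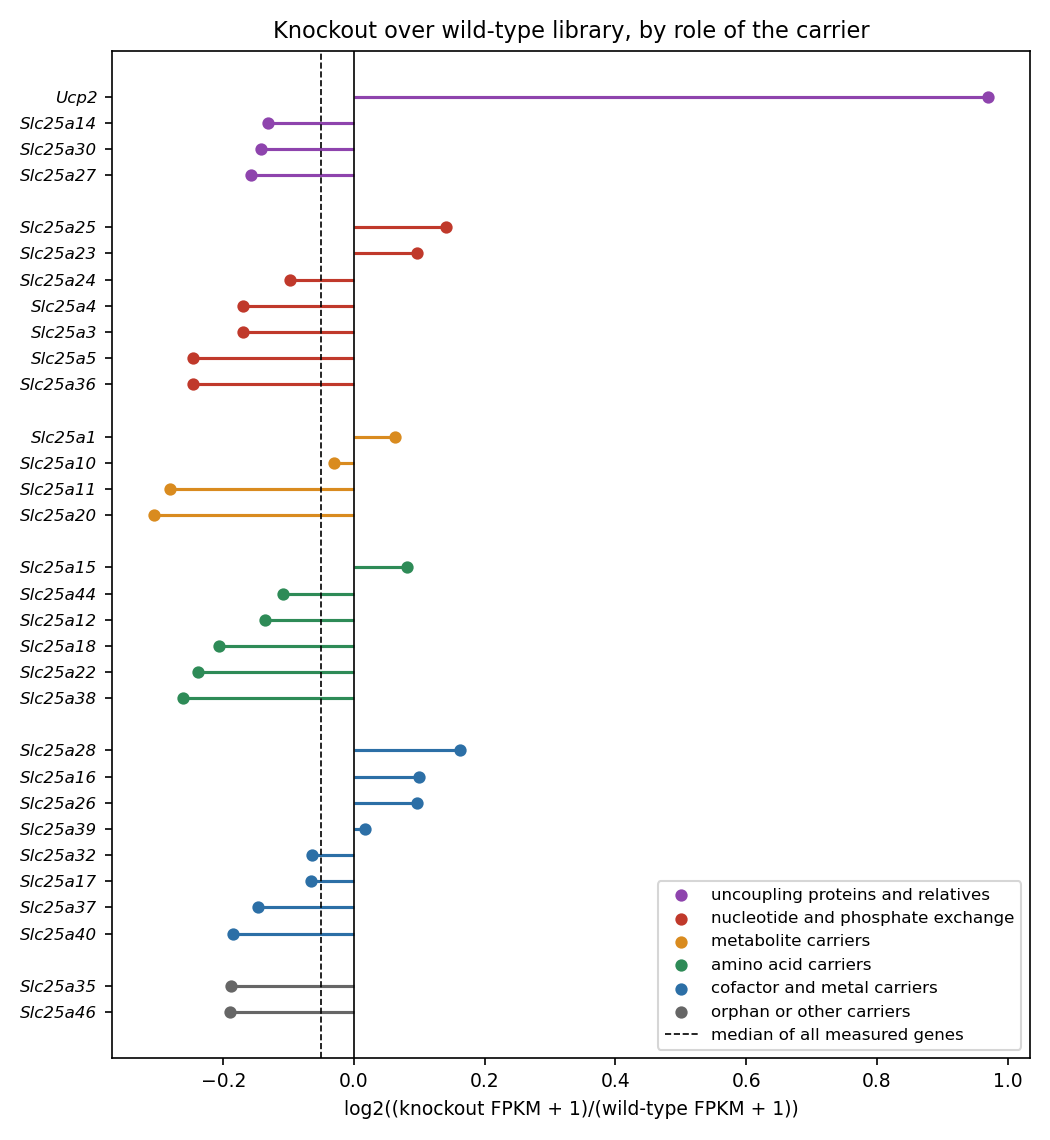
Log2 ratio of knockout over wild-type library (horizontal axis) for 31 of the 32 measured members, grouped and coloured by role, with 1 line per gene from 0. The dashed line is the median of all measured genes. Ucp2 is at 0.97, and no other member drawn is past -0.31 or 0.16.

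Macrophages are a cell type in which Ucp2 is abundant and which such cultures can hold. All 14 macrophage markers were measured, none at 0, with a summed level of 794 FPKM in knockout cells against 1274 FPKM in wild-type cells. The joined lysozyme entry of Lyz1 and Lyz2 made up most of this, at 572 FPKM in knockout cells against 979 FPKM in wild-type cells. The median log2 ratio of the 14 markers was -0.32, on the opposite side of the median gene from Ucp2. This also held on a common FPKM sum, where their median was 0.11 and that of all genes 0.34. As deposited, 12 of 14 were below 0 (background 63.1% of measured genes) and 2 were lower by 1.5-fold or more (background 1.23%). C1qb, a complement gene, was at -0.85, the joined lysozyme entry at -0.77, C1qc at -0.56 and the Fc receptor chain gene Fcer1g at -0.56. These were the lowest of the 14 markers, which ranged up to 0.21. In RNA from whole cultures, fewer cells of a type and less RNA per cell cannot be told apart. Markers of 3 other cell types in which a member is known to be abundant were low. None of the 5 hepatocyte, 4 germ cell or 7 skeletal muscle markers was measured, with summed levels of 0.201, 0.241 and 1.61 FPKM in knockout cells against 0.451, 0.425 and 1.98 FPKM in wild-type cells. Of the 6 adipocyte markers, 2 were measured, and the list summed to 24.9 FPKM in knockout cells against 33.7 FPKM in wild-type cells. Lpl, the lipoprotein lipase gene, made up most of this, at 18.7 FPKM in knockout cells against 24.4 FPKM in wild-type cells (-0.37). Fabp4, a fatty acid binding protein gene, was at 5.85 FPKM in knockout cells against 8.92 FPKM in wild-type cells (-0.53), while the fat cell hormone genes Adipoq and Lep were listed at 0 in both libraries. As deposited, the macrophage and adipocyte sums were lower in knockout cells, though on a common FPKM sum that of the adipocyte list is slightly higher, and their part in the carriers' values was not tested.

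The most abundant members carried ADP, ATP and phosphate, the substrates and product of ATP synthesis. Slc25a4, the ADP/ATP carrier best known from heart and muscle, was listed at 95.7 FPKM in knockout cells against 108 FPKM in wild-type cells (-0.17). Slc25a5, the ADP/ATP carrier of dividing cells, was at 42.8 FPKM in knockout cells against 50.9 FPKM in wild-type cells (-0.25). Slc25a3, the phosphate carrier, was at 79.8 FPKM in knockout cells against 89.9 FPKM in wild-type cells (-0.17). These 3 genes made up 57.8% of the summed member FPKM in knockout cells and 60.1% in wild-type cells, and held places 1 to 3 in both. The level of Slc25a4 was 2.24 times that of Slc25a5 in knockout cells and 2.12 times in wild-type cells. RefSeq lists a pseudogene of Slc25a5, and fragments shared with copies leave that level uncertain. Slc25a31, the ADP/ATP carrier of the germ line, was listed at 0 in knockout cells and 0.0526 FPKM in wild-type cells.

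Windows before the starts of the abundant ADP/ATP carrier genes are shown beside those of the uncoupling proteins, on the same build and with the same 8 motifs. Slc25a4 lies on the minus strand and is written in its own direction.
Slc25a4, chr8:46211063-46211312: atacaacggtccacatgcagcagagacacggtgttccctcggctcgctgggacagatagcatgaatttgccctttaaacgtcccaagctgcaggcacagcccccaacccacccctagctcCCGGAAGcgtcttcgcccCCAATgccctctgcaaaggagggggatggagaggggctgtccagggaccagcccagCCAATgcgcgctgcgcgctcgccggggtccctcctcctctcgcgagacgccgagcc
Slc25a5, chrX:36795347-36795596: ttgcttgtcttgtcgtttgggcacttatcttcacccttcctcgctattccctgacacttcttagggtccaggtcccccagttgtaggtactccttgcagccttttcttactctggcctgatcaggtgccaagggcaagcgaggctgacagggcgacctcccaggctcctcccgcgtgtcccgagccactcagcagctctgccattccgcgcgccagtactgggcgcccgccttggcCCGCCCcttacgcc

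The Slc25a4 window held 2 CCAAT matches, ending at -108 and -52, and 1 ETS-type match, from -130 to -124. The Slc25a5 window held 1 GC box match, from -14 to -9. CCAAT letters were found in 33.8% of all windows and ETS-type letters in 6.91%. Neither window held the SMAD-type letters, which 17.1% of all windows hold. A link between any of these matches and a gene's level was not tested.

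The other nucleotide carriers were lower in level. Slc25a24, a calcium-regulated carrier of ATP-Mg and phosphate, was listed at 13.4 FPKM in knockout cells against 14.4 FPKM in wild-type cells (-0.10). Its relatives Slc25a25 and Slc25a23 were on the other side of the median gene, at 0.14 and 0.10, with Slc25a25 at 2.24 FPKM in knockout cells against 1.94 FPKM in wild-type cells. The fourth relative, Slc25a41, was listed at 0 in both. Slc25a36, a pyrimidine nucleotide carrier, was at 7.23 FPKM in knockout cells against 8.76 FPKM in wild-type cells (-0.25), while the second such carrier, Slc25a33, was just under the measured limit with a mean of 0.993 FPKM. Over the 7 measured genes of this role 2 were above 0 and 5 below, and their median was -0.17, which becomes 0.29 on a common FPKM sum.

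ATP synthase, which works between the phosphate and ADP/ATP carriers, was mixed. Of 15 measured genes of its subunits and inhibitor, 8 were above 0 and 7 below, and their median was 0.02. Subunit genes Atp5h (33.1 FPKM in knockout cells against 19.4 FPKM in wild-type cells, 0.74) and Atp5j2 (0.60) were higher by 1.5-fold or more (background 1.04% of measured genes). Atp5l, near the measured limit at 1.57 FPKM in knockout cells against 0.879 FPKM in wild-type cells, was at 0.45. The inhibitor gene Atpif1 was at 0.44. The lowest measured gene of the list was at -0.25, and the list summed to 988 FPKM in knockout cells against 1011 FPKM in wild-type cells.

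**Figure D3:**
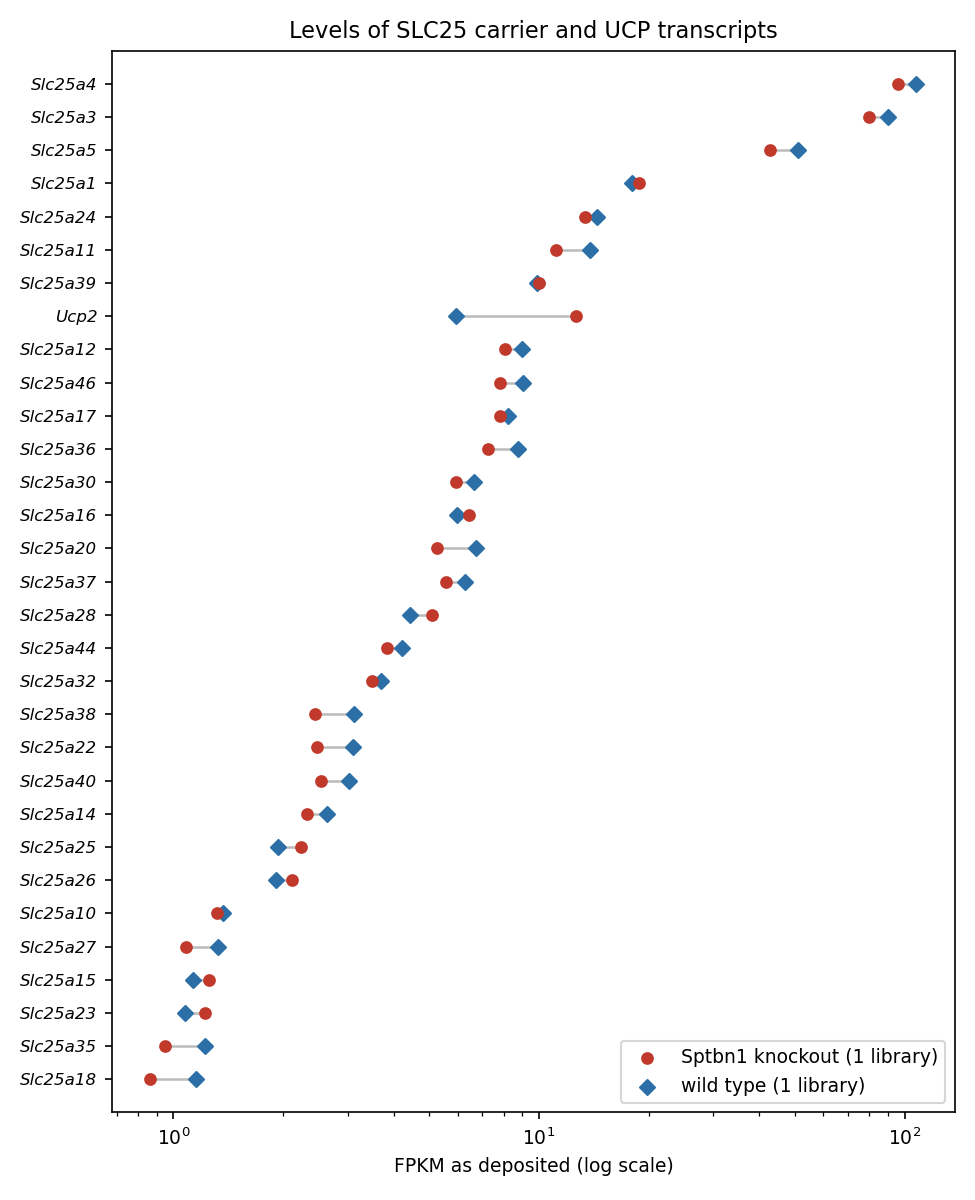
FPKM as deposited (horizontal log axis) of 31 of the 32 measured members in the knockout library (red circles) and the wild-type library (blue diamonds), ordered by their mean. Slc25a4, Slc25a3 and Slc25a5 lead in both libraries, and the widest gap on this axis is that of Ucp2, at 12.6 FPKM in knockout cells against 5.94 FPKM in wild-type cells.

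Of the 4 measured carriers of citric acid cycle metabolites and fatty acids, 3 were below 0 and 1 above, and their median was -0.16, which becomes 0.19 on a common FPKM sum. Slc25a20, which imports acylcarnitines for fatty acid oxidation, was listed at 5.26 FPKM in knockout cells against 6.75 FPKM in wild-type cells (-0.31). Slc25a11, the oxoglutarate and malate carrier, was at 11.2 FPKM in knockout cells against 13.8 FPKM in wild-type cells (-0.28). Their p-values in the authors' deposited table were 0.268375 for Slc25a20 and 0.173998 for Slc25a11. Slc25a1, which exports citrate for lipid synthesis, was at 18.8 FPKM in knockout cells against 17.9 FPKM in wild-type cells (0.06). Slc25a10, the dicarboxylate carrier, was at -0.03, and Slc25a21, the oxodicarboxylate carrier, was at 0.0549 FPKM in knockout cells and listed at 0 in wild-type cells. On a common FPKM sum each of the 4 measured genes was above 0.

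Enzymes that use these substrates had small differences. Fatty acid oxidation genes had a median of -0.04, with 9 of 12 below 0 (background 63.1% of measured genes). Cpt1a, which makes the acylcarnitines that Slc25a20 imports, was at 6.54 FPKM in knockout cells against 9.01 FPKM in wild-type cells (-0.41). The acyl-CoA dehydrogenase genes Acadl and Acadm were at -0.26 and -0.22, and Cpt1c was at -0.18. Pyruvate dehydrogenase and citric acid cycle genes had a median of -0.10, with 16 of 21 below 0, none past 1.5-fold, Pdhb at 0.26, Idh3b at -0.25, Sdhd at -0.23 and Dlat at -0.18. On a common FPKM sum the medians became 0.37 for fatty acid oxidation and 0.34 for the citric acid cycle.

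Of 6 measured amino acid carriers, 1 was above 0 and 5 were below (background 63.1% of measured genes). Their median of -0.17 becomes 0.18 on a common FPKM sum. Slc25a12, the aspartate and glutamate carrier of the malate-aspartate shuttle, was listed at 8.09 FPKM in knockout cells against 8.99 FPKM in wild-type cells (-0.14). Slc25a13, the second carrier of that kind, was low in both, at 0.645 FPKM in knockout cells against 0.704 FPKM in wild-type cells. The shuttle's enzymes were at -0.22 for Got2, -0.15 for Got1, -0.10 for Mdh2 and -0.01 for Mdh1. All of these differences turn positive on a common FPKM sum. Slc25a22, a glutamate carrier, was at 2.47 FPKM in knockout cells against 3.09 FPKM in wild-type cells (-0.24), and its relative Slc25a18 at -0.21. Slc25a44, a carrier of branched-chain amino acids, was at -0.11, and the ornithine carrier Slc25a15 at 0.08.

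Slc25a38, which imports glycine for heme synthesis, was listed at 2.44 FPKM in knockout cells against 3.13 FPKM in wild-type cells (-0.26). Mitoferrins, which import iron for heme and iron-sulfur clusters, lay on opposite sides of the median gene. Slc25a28, or mitoferrin 2, was at 5.08 FPKM in knockout cells against 4.44 FPKM in wild-type cells (0.16). Slc25a37, or mitoferrin 1, was at 5.56 FPKM in knockout cells against 6.26 FPKM in wild-type cells (-0.15). The glutathione carriers, which supply the thiol that iron-sulfur proteins depend on, were at 0.02 for Slc25a39 and -0.19 for Slc25a40. Slc25a39 was the more abundant, at 9.97 FPKM in knockout cells against 9.85 FPKM in wild-type cells. On a common FPKM sum the members of this paragraph were all above 0.

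Heme and iron-sulfur synthesis genes had a median of -0.09, with 8 of 13 below 0 and none past 1.5-fold, and the median became 0.29 on a common FPKM sum. Urod, a decarboxylase of the heme pathway, was at 6.26 FPKM in knockout cells against 8.73 FPKM in wild-type cells (-0.42). The erythroid heme enzyme gene Alas2 was at 0.27. The globin genes Hba-a1 and Hbb-b1 and the red cell membrane gene Slc4a1 were listed at 0 in both libraries.

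Among cofactor carriers, Slc25a16, linked to coenzyme A uptake, was at 6.45 FPKM in knockout cells against 5.95 FPKM in wild-type cells (0.10). Slc25a26, the S-adenosylmethionine carrier, was also at 0.10. Slc25a17, a peroxisomal carrier of cofactors, was at 7.82 FPKM in knockout cells against 8.24 FPKM in wild-type cells (-0.07). Slc25a32, which carries folate and FAD, was at -0.06, and the coenzyme A carrier Slc25a42 was below the measured limit with a mean of 0.970 FPKM. Over the 9 measured cofactor and metal carriers 5 were below 0 and 4 above, and the median of -0.06 was near that of all genes.

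One-carbon and glutamine genes, whose enzymes use the folate and glutamate that these carriers move, had a median of -0.01, with 6 of 10 below 0. Pycr1 of proline synthesis was at 0.29 and Aldh1l2 of folate oxidation at 0.28, while Mthfd2l was at -0.29.

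Of the carriers with no settled substrate or another role, Slc25a46, an outer membrane protein linked to mitochondrial fusion and lipid transfer, was the most abundant. It was listed at 7.81 FPKM in knockout cells against 9.05 FPKM in wild-type cells (-0.19). Slc25a35 was at 0.948 FPKM in knockout cells against 1.22 FPKM in wild-type cells (-0.19). The 13 members below the measured limit ranged up to 0.930 FPKM in knockout cells against 1.06 FPKM in wild-type cells. Of these, 7 were above 0 in both libraries, 4 were listed at 0 in 1 library and 2 (Ucp1 and Slc25a41) in both. Slc25a45 was at 0.626 FPKM in knockout cells against 0.777 FPKM in wild-type cells, and Slc25a43 at 0.208 FPKM in knockout cells against 0.325 FPKM in wild-type cells. Slc25a29, a basic amino acid carrier, was at 0.214 FPKM in knockout cells against 0.227 FPKM in wild-type cells. Slc25a34 was listed at 0.0218 FPKM in knockout cells and at 0 in wild-type cells. At such levels ratios can move in steps of single fragments. Slc25a2, an ornithine carrier, was at 0.0930 FPKM in knockout cells against 0.0577 FPKM in wild-type cells, a plain log2 ratio of 0.69. This was also the commonest log2 ratio among 3100 rows with a mean below 0.3 FPKM, held by 383 of them. It is therefore not read as a difference of this gene.

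The machinery that inserts carriers into the inner membrane had a median of -0.07 over 13 measured genes, which became 0.32 on a common FPKM sum. Of the 13, 11 were below 0 (background 63.1% of measured genes) and none was past 1.5-fold. Of the machinery's small chaperone genes, Timm9 was at -0.33, Timm8b at -0.30 and Timm10 at -0.13. The translocase gene Agk, near the measured limit with a mean of 1.14 FPKM, was at -0.17. Other inner membrane transporters had a median of -0.05, with 8 of 13 below 0. Sideroflexin genes stood on both sides of the median gene, Sfxn5 at 0.20 and Sfxn3 at -0.17, with Abcb8 at -0.16 and Abcb10 at 0.15. The porins and the outer membrane carrier relatives Mtch1 and Mtch2 had a median of 0.02 over 5 genes. Vdac1, the most abundant porin gene, was at 59.9 FPKM in knockout cells against 47.7 FPKM in wild-type cells (0.32), whereas Vdac2 was at -0.17, Vdac3 at 0.10 and Mtch1 at 0.02. Measured regulators of mitochondrial biogenesis had a median of -0.07 over 5 genes, with Pprc1 at -0.14, Ppard at -0.08, Nrf1 at -0.07 and Gabpa at -0.02. Ppargc1a, a coactivator of Ucp1 in brown fat, was at 0.131 FPKM in knockout cells against 0.195 FPKM in wild-type cells. Mitochondrial antioxidant genes had a median of -0.10 with 6 of 6 below 0, among them Prdx5 (-0.17), Sod2 (-0.16), Prdx3 (-0.12) and Glrx2 (-0.08), a median that becomes 0.30 on a common FPKM sum. In none of these 5 lists was a gene past 1.5-fold.

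**Figure D4:**
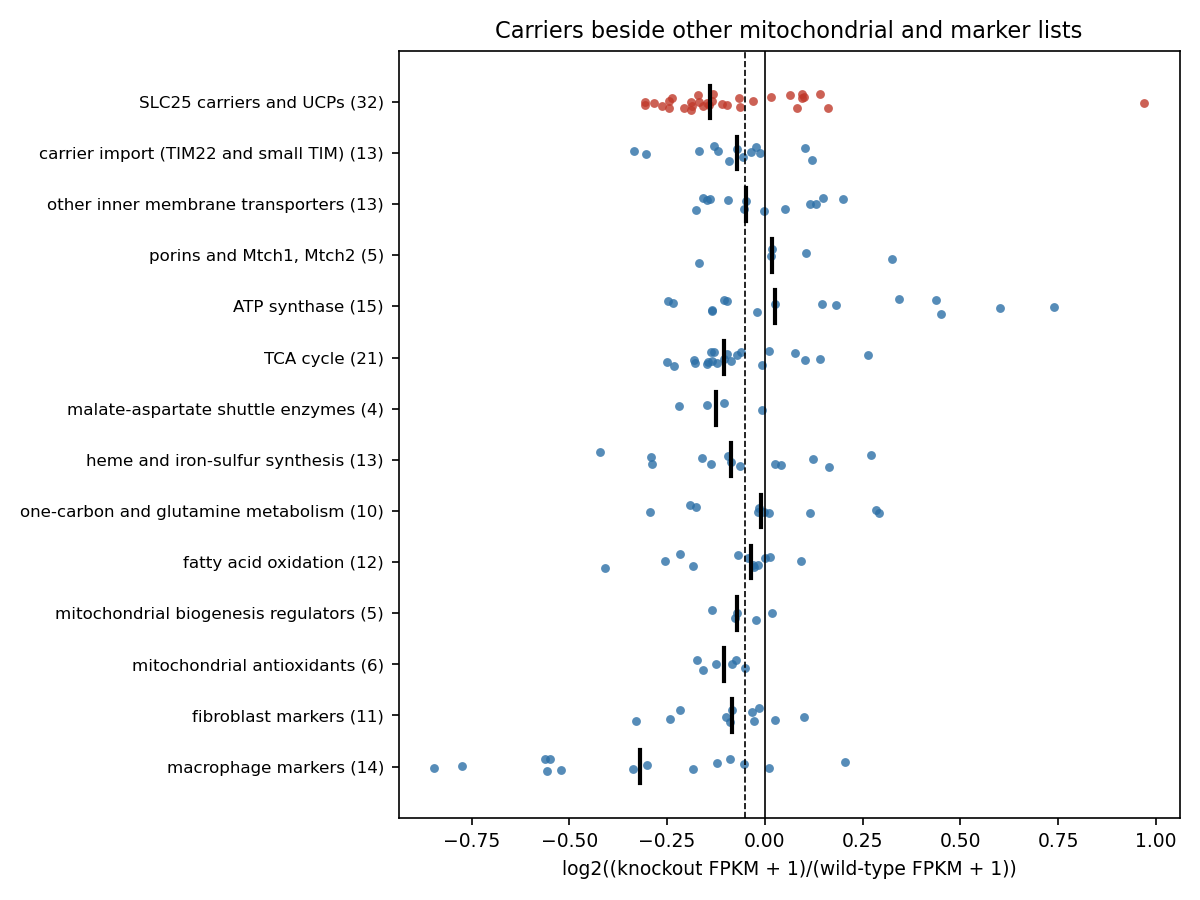
Log2 ratio of knockout over wild-type library (horizontal axis) of each measured gene, for the carriers (red) and other lists (blue), with the number of genes in brackets and a black bar at each median. The dashed line is the median of all measured genes at -0.05. The carriers' median is -0.14, and the lowest drawn is that of macrophage markers at -0.32.

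**Figure D5:**
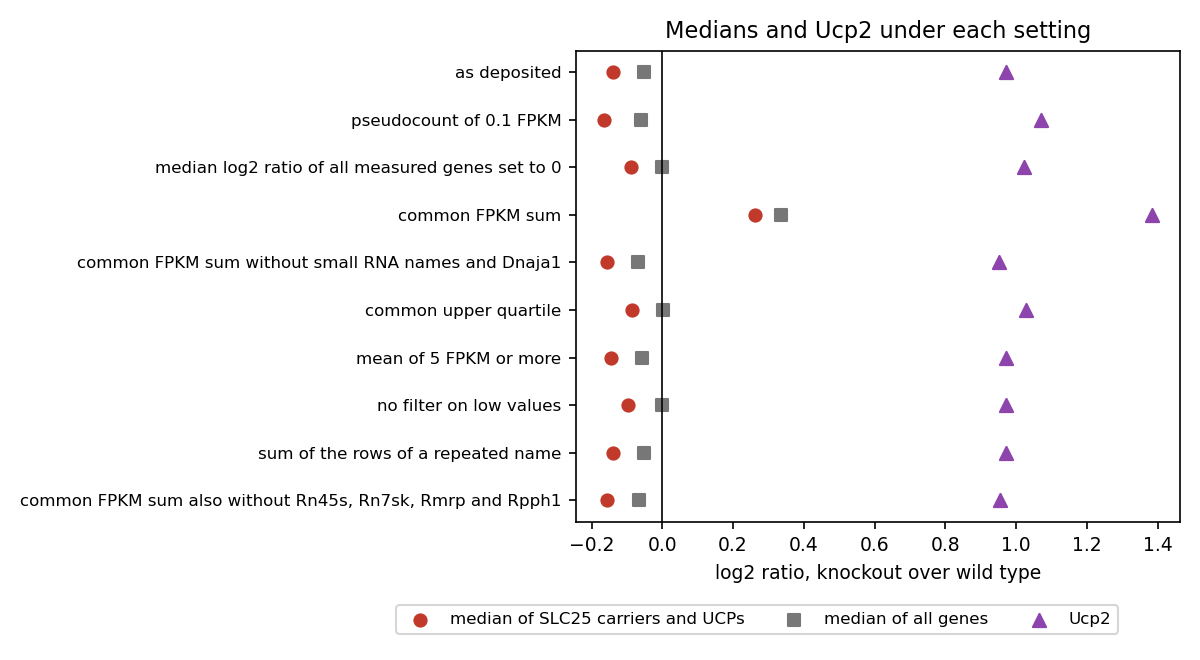
Median log2 ratio of the measured carriers (red circles), median of all genes (grey squares) and log2 ratio of Ucp2 (purple triangles) under each setting of scale, filter and pseudocount. The carriers' median stays below that of all genes in each setting drawn, both medians are above 0 on a common FPKM sum, and Ucp2 lies between 0.95 and 1.39. The scalings shift both medians almost alike, so they are no check of the order of the medians.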

How the data were processed

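RNA sequencing was done on 1 Sptbn1 knockout and 1 wild-type library of mouse embryonic fibroblasts. Per the series' design text, reads were checked with FastQC and Trimmomatic, aligned with TopHat2 (version 2.0.10 in the submitters' processing notes) to NCBI mouse build 37.2, quantified with Cufflinks and compared with Cuffdiff2. Per the file headers, the authors deposited FPKM per gene and library and a p-value. The header of the second FPKM column holds WT and also a -/- mark. It was read as the wild-type library, whose title is WT, and all directions depend on that reading.

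Where a name was repeated, its highest row by mean FPKM was kept. Log2 ratios with 1 FPKM added and medians were computed with pandas 2.3.3 and numpy 2.4.6, and the code was tested on simulated data. No test was possible with 1 library per genotype. Members, lists and roles were chosen with earlier results of these data known. Every member could be named; of the other lists, up to 4 measured genes with the largest differences were named, and defining markers at or near 0, Ppargc1a and Ucp2's neighbours besides. Symbols were matched through the RefSeq table of GRCm38.p6, whose promoter windows are printed. Cufflinks divides fragments shared between near-identical genes, so levels of genes with copies are uncertain, and a listed 0 may be a failed estimate. Depth is unknown, so no interval or floor was computed. Values of a few genes under the naming rule are not reported here, though they stay in the counts and medians.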

Additional observations from a re-analysis of the deposited data

How the results depend on the processing

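Each result was recomputed with 0.1 FPKM added, 4 other scalings, a mean of 5 FPKM or more, no filter, and repeated rows summed; a common sum also without Rn45s, Rn7sk, Rmrp and Rpph1 was chosen after seeing the data. Scaling to a common FPKM sum added 0.47 to log2 ratios before the pseudocount and changed the sign of 23 of 32 members. The members' median became 0.26 and the role medians 0.18 (amino acid), 0.35 (cofactor and metal), 0.19 (metabolite), 0.29 (nucleotide and phosphate), 0.14 (orphan or other) and 0.23 (uncoupling proteins and relatives). Without small RNA names and Dnaja1 the shift was -0.02, and 1 sign changed. At a mean of 5 FPKM or more the metabolite median was -0.28 and the uncoupling median 0.41, since fewer genes remained, and with no filter the metabolite median was -0.031. With 1 FPKM added, the number of members higher was 0 at 2-fold, where Ucp2 lay just under, and the number lower was 3 at 1.2-fold. With 0.1 FPKM added, more members were lower at 1.2-fold. Ucp2 ranged from 0.95 to 1.39. The number of members below 0 was 0 on a common FPKM sum, 12 of 16 at a mean of 5 FPKM or more, 30 of 45 with no filter, and 22 to 24 of 32 in the other settings. The number below the median of all genes was also 12 of 16 and 30 of 45 under those filters. Scaling to a common FPKM sum raised each list median tested, that of ATP synthase to 0.48, and the macrophage median was -0.52 at a mean of 5 FPKM or more. In the other settings the role and list medians moved by at most 0.1 on the log2 scale, apart from those given. No paired analysis was possible because each genotype has 1 library, and for the same reason no library could be left out. Members near 1 FPKM are limited by depth, which the table does not give.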

Other observations

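Relatives of the family appear in the table under older names and so lie outside the members. Slc25a51, the mitochondrial NAD carrier, listed as Mcart1, was at 12.4 FPKM in knockout cells against 10.9 FPKM in wild-type cells, a log2 ratio of 0.17. Slc25a47, a liver carrier, was at 0.427 FPKM in knockout cells against 0.506 FPKM in wild-type cells. Slc25a53, Slc25a54 and Slc25a48 were each below 0.3 FPKM in both libraries.

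Some housekeeping mitochondrial genes had low listed values. Mpc1, a subunit of the pyruvate carrier, was at 0.295 FPKM in knockout cells against 0.0918 FPKM in wild-type cells, while its partner Mpc2 was at 14.0 FPKM in knockout cells against 12.7 FPKM in wild-type cells. Gpx4, a lipid peroxide reductase gene, was at 0.355 FPKM in knockout cells against 0.397 FPKM in wild-type cells. These were named after their values were seen.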
